A study of Homo sapiens with 6 samples.

Results

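The 32 genes described here encode proteins that prepare, start and carry out DNA replication or supply its building blocks. They were chosen by name, with no cut on a measured value but with earlier results of these data known, and were matched by symbol to 32 of the 60605 genes in the count table. All 32 were among the 17371 genes with enough counts to test. They were compared in HuCCT-1, an established line of human bile duct cancer (cholangiocarcinoma) grown in medium with serum. One group of 3 libraries came from cells given 6 nM JNJ-64619178, a small molecule that blocks the arginine methyltransferase PRMT5, and the other group of 3 from cells given DMSO, the solvent, at equal volume, both for 4 days. Every library comes from this 1 line and this 1 dose and time. The comparison asks how blocking PRMT5 shifts the transcripts of the replication machinery.

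Replication begins when the origin recognition complex, with CDC6 and CDT1, loads the MCM helicase onto DNA in G1. At the start of S phase CDC45 and the GINS complex join the helicase, primase and polymerase alpha lay down primers, and the clamp PCNA, placed by the RFC clamp loader, holds polymerases delta and epsilon on the template. FEN1 and LIG1 finish the lagging strand, while ribonucleotide reductase and thymidylate synthase make deoxynucleotides. Many of these genes are transcribed under E2F factors as cells enter S phase, so in bulk RNA a lower share of cells in S phase and less transcript per cell cannot be told apart.

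Total gene counts ran from 28133746 to 30691914 per DMSO library and from 23931991 to 28224911 per inhibitor library. Levels below are CPM, that is counts scaled to the library total, with TMM scaling factors. The biliary markers KRT7, KRT19, EPCAM, SOX9 and CFTR were all detected, and their summed level was 4482 to 4701 CPM in the DMSO group against 3562 to 3799.7 CPM in the treated group. In the library where it was highest, 1 marker alone stood at 3756 CPM, most of that sum. The 4 hepatocyte, 3 leukocyte, 3 endothelial and 4 fibroblast markers each summed to at most 1.12 CPM in every library, and TTR was at 0 throughout. The labels do not say whether replicates were separate cultures, so the p-values cover only the spread among these 6 samples, possibly technical. Fold changes are inhibitor over DMSO, and a gene passed where its adjusted p in edgeR's quasi-likelihood test was under 0.05.

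The promoters printed here are those of the genes that passed the test and have a RefSeq entry, and that of PCNA, a well measured gene that did not pass. Each run gives the 250 bases before a RefSeq start site (GRCh38.p14), 5′ to 3′ on the gene's strand, at the first listed start where a gene has more than 1. They lie at chr19:50384073-50384322 on the plus strand for POLD1, chr12:132687343-132687592 on the minus strand for POLE and chr3:186806483-186806732 on the minus strand for RFC4. Those of the other genes lie at chr1:52404424-52404673 on the minus strand for ORC1, chr2:10122489-10122738 on the plus strand for RRM2 and chr20:5126623-5126872 on the minus strand for PCNA. Capitals mark the E2F motif (TTTCCCGC, TTTCGCGC, TTTGCCGC or TTTGGCGC) and the CCAAT box (CCAAT), the motif of the factor NF-Y, each searched on both strands.
POLD1: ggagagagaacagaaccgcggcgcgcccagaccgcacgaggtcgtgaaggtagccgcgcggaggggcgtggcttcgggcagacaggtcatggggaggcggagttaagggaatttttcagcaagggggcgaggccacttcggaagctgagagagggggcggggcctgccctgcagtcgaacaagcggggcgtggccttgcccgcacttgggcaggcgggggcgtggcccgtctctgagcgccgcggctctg
POLE: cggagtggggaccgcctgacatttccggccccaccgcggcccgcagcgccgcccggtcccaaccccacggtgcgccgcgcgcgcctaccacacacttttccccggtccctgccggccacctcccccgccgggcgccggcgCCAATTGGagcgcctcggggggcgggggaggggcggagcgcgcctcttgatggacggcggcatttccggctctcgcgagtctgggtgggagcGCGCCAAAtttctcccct
RFC4: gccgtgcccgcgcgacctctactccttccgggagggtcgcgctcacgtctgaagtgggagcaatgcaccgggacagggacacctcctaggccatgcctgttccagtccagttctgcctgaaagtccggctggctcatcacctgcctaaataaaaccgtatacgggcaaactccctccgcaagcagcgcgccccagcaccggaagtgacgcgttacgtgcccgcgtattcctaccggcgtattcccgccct
ORC1: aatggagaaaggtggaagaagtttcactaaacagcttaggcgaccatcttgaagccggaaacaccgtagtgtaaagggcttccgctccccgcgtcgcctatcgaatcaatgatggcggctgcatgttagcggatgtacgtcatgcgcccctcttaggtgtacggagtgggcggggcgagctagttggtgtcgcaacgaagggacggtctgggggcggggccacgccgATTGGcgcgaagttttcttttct
RRM2: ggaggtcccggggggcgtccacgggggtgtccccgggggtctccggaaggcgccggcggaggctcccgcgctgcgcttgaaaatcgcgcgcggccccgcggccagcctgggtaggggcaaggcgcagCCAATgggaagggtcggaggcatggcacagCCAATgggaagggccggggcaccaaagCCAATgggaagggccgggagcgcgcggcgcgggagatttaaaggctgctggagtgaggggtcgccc
PCNA: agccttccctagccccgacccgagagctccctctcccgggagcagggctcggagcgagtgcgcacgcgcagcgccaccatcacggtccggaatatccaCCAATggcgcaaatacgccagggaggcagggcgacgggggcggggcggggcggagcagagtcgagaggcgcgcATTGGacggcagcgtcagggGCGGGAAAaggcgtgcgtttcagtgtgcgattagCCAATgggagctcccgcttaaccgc

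The POLE window held 1 E2F match, whose first base lay at position -18 from the start, and a CCAAT box on each strand at -110 and -107, which overlap. RRM2 carried 3 CCAAT boxes, at -123, -93 and -66, and no E2F match in this window. PCNA had 1 E2F match at -59 and CCAAT boxes at -152, -79 and -25. ORC1 had 1 CCAAT box at -23, and POLD1 and RFC4 had neither motif. The windows of RFC4 and RRM2 lie wholly inside the GENCODE span of their gene, whose annotated 5′ end is further upstream. Those of the other genes printed overlap that span in part.

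Of the 32 genes, 29 had a RefSeq promoter entry, and POLD3, CCNE2 and GINS4 are named only. For these shares a gene was counted if the window of any of its listed starts held a match. Genes with more starts thus had more chances. An E2F match was found for 12 of the 29 (41.4%), against 928 of 27305 genes of the table with an entry (3.40%) and 5.50% of the protein-coding genes tested. The CCAAT box was found for 17 of 29 (58.6%), against 37.0% and 41.3%. Among the 12 genes with an E2F match POLE passed the test, and among the 17 without one ORC1, POLD1, RFC4 and RRM2 did. Over all tested genes 37.1% passed, and 23.5% of those below 10 CPM. The median log2 fold change was -0.02 with the match and 0.04 without it. A match is a description of letters in these windows, and its absence says nothing of the factor.

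After 4 days of inhibitor the catalytic subunits of polymerases delta and epsilon, POLD1 and POLE, the delta subunit POLD3, the clamp loader subunit RFC4 and the origin subunit ORC1 were higher, by 1.26-fold (POLE) to 1.76-fold (ORC1). RRM2, the small subunit of ribonucleotide reductase, was lower by 1.64-fold (DMSO over inhibitor). The other 26 genes did not pass. Thus 5 of 32 rose and 1 fell, with ORC1 losing its call in 5 of 13 alternative fits, against 20.0% of all tested genes higher and 17.1% lower. Together 18.8% of the 32 passed, against 37.1% of all tested genes and 40.8% of the protein-coding ones. The median log2 fold change of the 32 was 0.03, against 0.0014 over all tested genes and 0.019 over the protein-coding ones. With upper-quartile scaling the higher share of the calls over all genes went from 53.9% to 40.6%, while the 32 again had 5 higher and 1 lower.

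**Figure D1:**
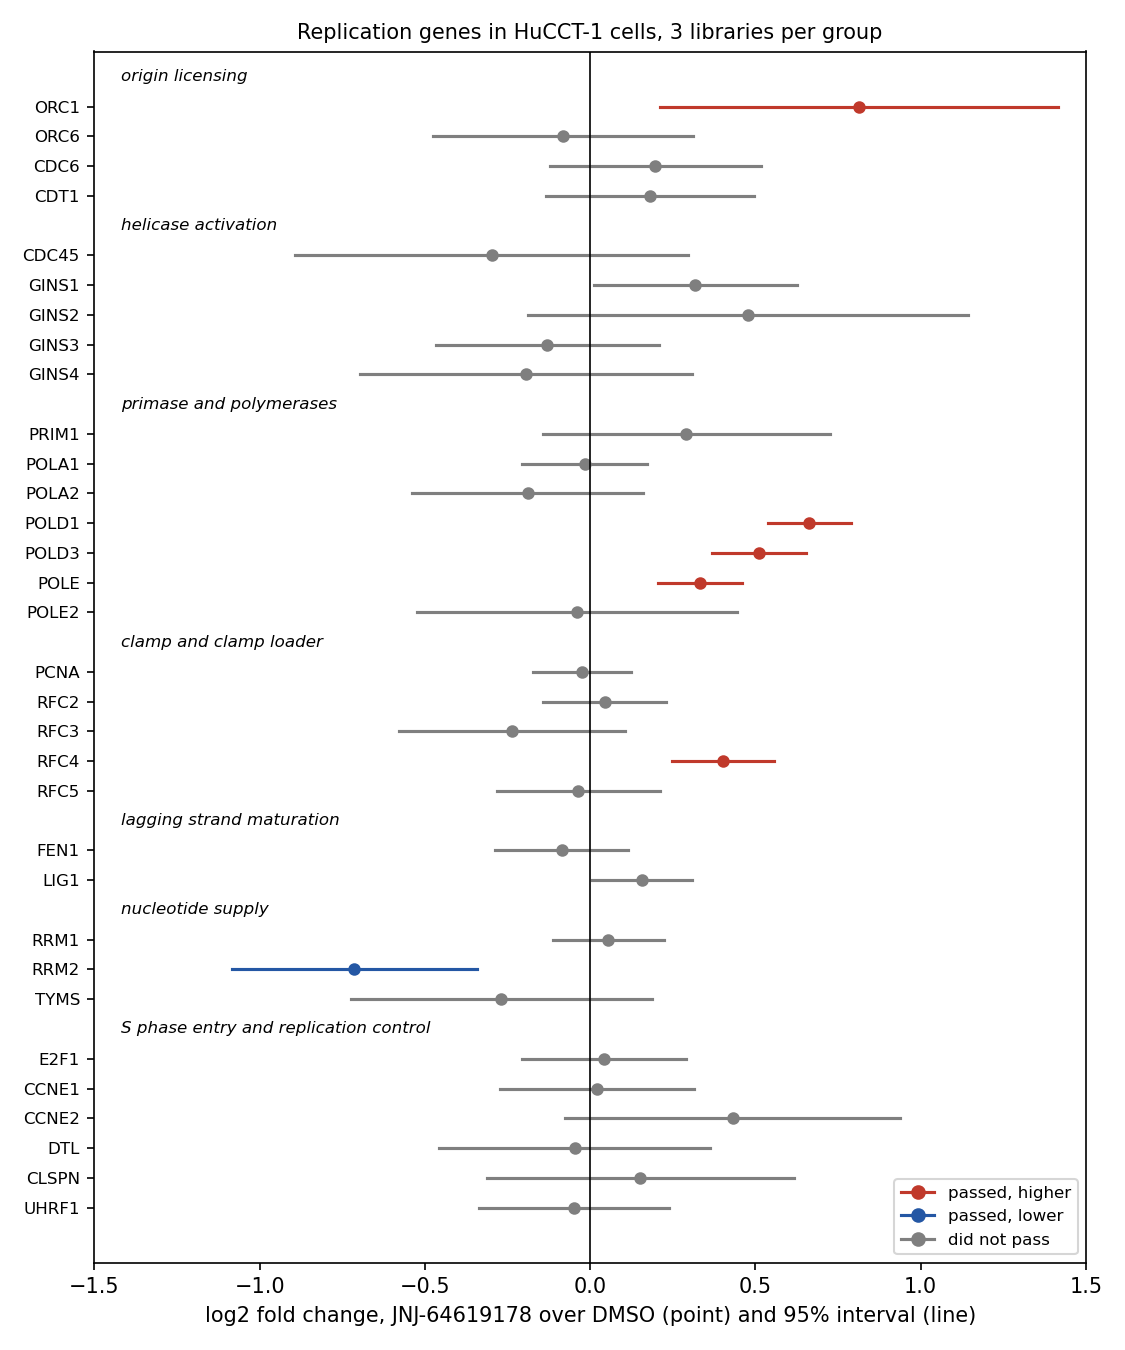
Log2 fold change of each of the 32 genes (points) with its 95% interval (lines), inhibitor over DMSO, grouped by step; colours mark genes that passed the edgeR test. POLD1, POLD3, POLE, RFC4 and ORC1 lie right of 0 and RRM2 lies left of it at -0.71.

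Most of these transcripts were scarce. Their median level in the DMSO group was 4.00 CPM, against 23.3 CPM over the 13063 protein-coding genes tested. Of the 22 genes below a mean of 10 CPM, 2 passed (ORC1 and RRM2), where 23.5% of all tested genes at such levels passed. Of the 10 at 10 CPM or more, 4 passed (POLD1, POLD3, POLE and RFC4), where 48.6% of all genes did. Inhibitor and DMSO libraries did not overlap in 10 of the 32, against 47.0% of all genes.

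**Figure D2:**
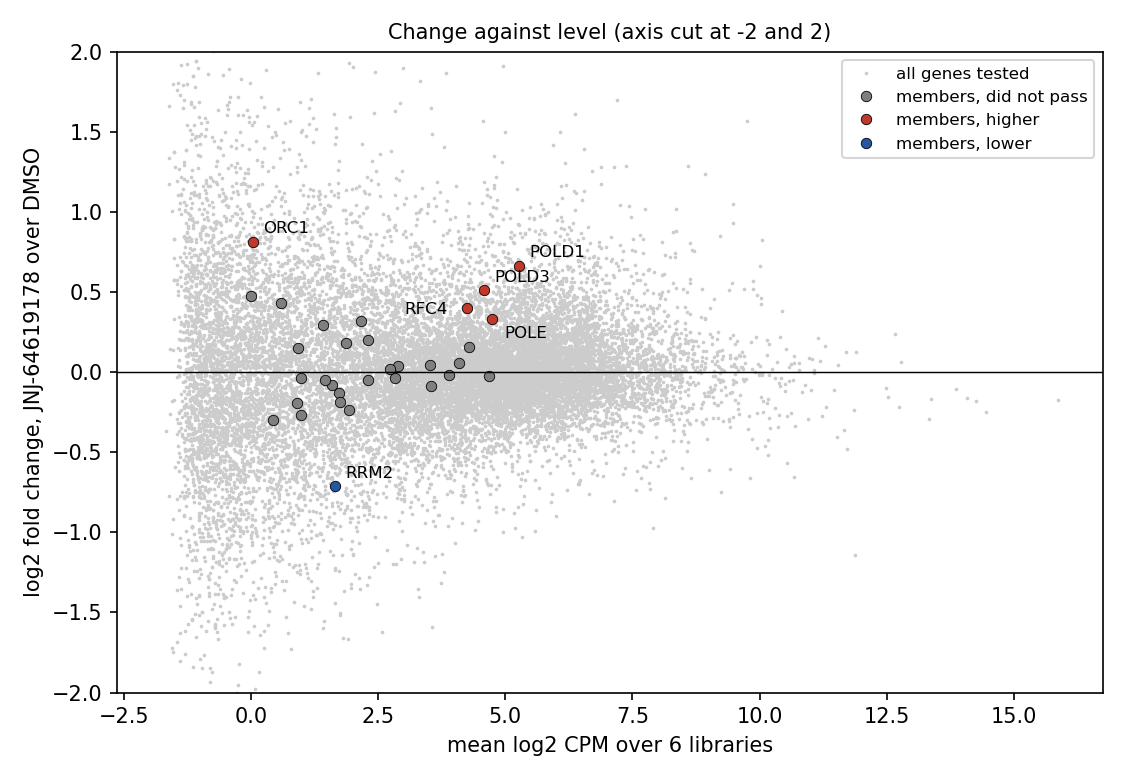
Log2 fold change (vertical axis, limited to -2 to 2) against mean log2 CPM over the 6 libraries (horizontal axis) for the 17371 tested genes (grey) and the 32 replication genes (large points). Of the 6 that passed, ORC1 and RRM2 lie at low level, and POLD1, POLD3, POLE and RFC4 lie above a mean of 10 CPM.

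The origin licensing genes act first. ORC1, the ATPase subunit of the origin recognition complex that is degraded and remade each cycle, stood at 0.804, 0.652 and 0.642 CPM in the DMSO libraries and 1.06, 1.40 and 1.23 CPM in the inhibitor libraries. The groups did not overlap, although each library held only 18 to 40 reads of the gene. ORC1 rose (log2 fold change 0.81, SE 0.29, edgeR adjusted p = 0.0306). It did not pass with DESeq2 (adjusted p = 0.0750) or when 1 of 4 libraries was left out, namely replicate 2 of DMSO (adjusted p = 0.0977), replicate 3 of DMSO (0.0954), replicate 2 of the inhibitor (0.125) or replicate 3 of the inhibitor (0.0674). Over all 13 alternatives its adjusted p ran from 0.0191 to 0.125 and its log2 fold change from 0.70 to 0.92. ORC1 (ENSG00000085840) lies on chromosome 1 at 52372829 to 52404459 (GRCh38, GENCODE release 29).

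CDC6, the loader of the MCM helicase, measured 3.62, 5.69 and 4.43 CPM in the DMSO libraries and 5.69, 5.25 and 4.75 CPM in the inhibitor libraries. The DMSO libraries spread from below to level with the inhibitor values, and the gene did not pass (0.20, adjusted p = 0.344). CDT1, its partner in loading, was at 3.45, 3.37 and 3.34 CPM and 4.11, 3.57 and 3.86 CPM in the same order, so the groups lay apart but the gene did not pass (0.18, adjusted p = 0.385). ORC6, the smallest origin subunit, measured 3.02 ± 0.520 and 2.83 ± 0.595 CPM in DMSO and inhibitor libraries (mean ± SD, n = 3 each, as in all such pairs below), with a log2 fold change of -0.08 (adjusted p = 0.774).

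None of the 5 genes of helicase activation passed by edgeR, 1 had an unadjusted p under 0.05, and the lowest adjusted p over all fits, DESeq2 and limma-voom included, was 0.0648 (GINS1). All 5 lay below a mean of 10 CPM, where 23.5% of all tested genes passed. CDC45, which bridges the MCM ring, read 1.27, 1.59 and 1.35 CPM in the DMSO libraries and 0.773, 0.980 and 1.70 CPM in the inhibitor libraries. Replicate 3 of the inhibitor group was above every DMSO library while the other two were below, and the log2 fold change of -0.30 had a 95% interval from -0.89 to 0.30. Without that library it was -0.67 (adjusted p = 0.107).

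The GINS complex is built of 4 small subunits. GINS1 stood at 4.49, 4.13 and 3.31 CPM in the DMSO libraries and 4.55, 5.42 and 4.83 CPM in the inhibitor libraries, and although the groups did not overlap it did not pass (0.32, adjusted p = 0.0989, unadjusted p by edgeR 0.0434). GINS2, at 0.804, 1.01 and 0.546 CPM and 1.26, 0.735 and 1.31 CPM, overlapped and had the widest interval of the 32 (0.48, 95% interval -0.19 to 1.14). GINS3 measured 3.37 ± 0.159 and 3.07 ± 0.274 CPM (-0.13, adjusted p = 0.573), and GINS4 1.90 ± 0.540 and 1.67 ± 0.356 CPM (-0.19, adjusted p = 0.571).

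Of the 7 primase and polymerase genes 3 rose and 0 fell (42.9% passed). In either direction 37.1% of all tested genes passed, and 48.6% of those at 10 CPM or more. Of all tested genes 20.0% were higher. POLD1, the catalytic subunit of polymerase delta, the main lagging strand enzyme, read 31.9, 28.8 and 28.9 CPM in the DMSO libraries and 44.5, 48.9 and 48.5 CPM in the inhibitor libraries. Every inhibitor library was well above every DMSO library, and the gene rose by 0.66 on the log2 scale (1.58-fold, SE 0.06, edgeR adjusted p = 4.6e-09). POLD1 (ENSG00000062822) lies on chromosome 19 at 50384204 to 50418016.

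POLD3, the delta subunit that links the enzyme to PCNA, read 20.7, 18.6 and 20.2 CPM in the DMSO libraries and 29.6, 27.2 and 28.1 CPM in the inhibitor libraries. The groups again stood apart, with a log2 fold change of 0.51 (1.42-fold, SE 0.07, edgeR adjusted p = 1.96e-06). POLD3 (ENSG00000077514) lies on chromosome 11 at 74493851 to 74669117. The remaining delta subunits are not among the 32. POLD4 rose from 12.0 ± 0.781 to 16.4 ± 1.36 CPM (0.45, adjusted p = 0.000195), while POLD2, named after its values were seen, measured 109 ± 1.94 and 111 ± 2.74 CPM and did not pass (0.02, 95% interval -0.07 to 0.12).

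POLE, the catalytic subunit of the leading strand polymerase epsilon, read 22.9, 23.6 and 24.2 CPM in the DMSO libraries and 29.8, 29.8 and 29.5 CPM in the inhibitor libraries. The change was small but larger than the spread within either group (log2 fold change 0.33, 1.26-fold, SE 0.06, edgeR adjusted p = 0.000151). POLE (ENSG00000177084) lies on chromosome 12 at 132623753 to 132687365. POLE2, its accessory subunit, was at 1.81, 2.46 and 1.54 CPM and 2.16, 1.40 and 2.12 CPM and did not pass (-0.04, 95% interval -0.52 to 0.44). Of the histone-fold subunits, again outside the 32, POLE4 rose (0.41, adjusted p = 0.000812), and POLE3, named after its values were seen, did not pass (-0.08, adjusted p = 0.341).

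The primase and polymerase alpha genes, which make primers, did not pass. POLA1, the catalytic subunit, was at 15.5, 13.0 and 16.0 CPM in the DMSO libraries and 16.3, 13.6 and 14.4 CPM in the inhibitor libraries, with groups that overlap (-0.02, 95% interval -0.21 to 0.17). POLA2, its regulatory partner, measured 3.48 ± 0.353 and 3.04 ± 0.433 CPM (-0.19, adjusted p = 0.413), and PRIM1, the primase, 2.33 ± 0.677 and 2.88 ± 0.465 CPM (0.29, 95% interval -0.14 to 0.72). Summed over the 7 polymerase and primase genes, the level was 99.0, 91.2 and 97.5 CPM in the DMSO libraries and 128, 127 and 129 CPM in the inhibitor libraries, and the 3 genes that passed are part of this sum. The ratio of mean sums, inhibitor over DMSO, was 1.33 here and 0.946 to 1.12 in the other 6 steps.

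**Figure D3:**
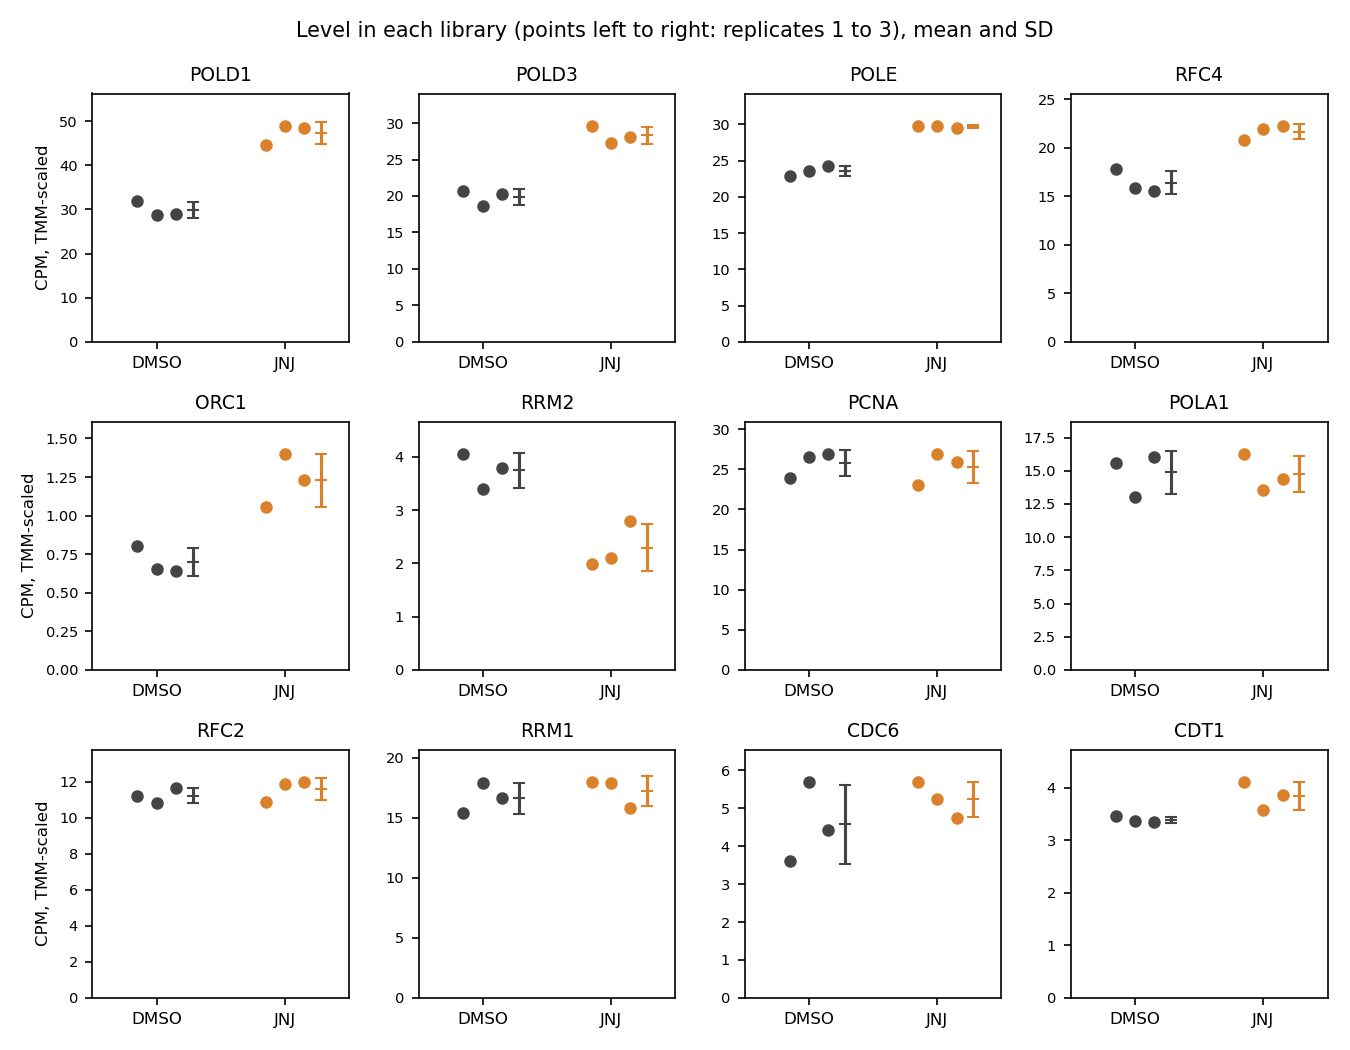
CPM in each library for 12 of the genes (axes start at 0; points are replicates 1 to 3, bars the mean and SD). In the 6 genes that passed, POLD1, POLD3, POLE, RFC4, ORC1 and RRM2, the points of the groups do not overlap, whereas those of PCNA, POLA1, RFC2, RRM1 and CDC6 do. CDT1 did not pass, although its groups do not overlap either.

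Among the 5 clamp and clamp loader genes 1 rose (20%), where 20.0% of all tested genes were higher. PCNA, the sliding clamp, stood at 23.9, 26.5 and 26.9 CPM in the DMSO libraries and 23.1, 26.9 and 25.9 CPM in the inhibitor libraries. The groups overlap, and the 95% interval of the log2 fold change, -0.17 to 0.12, lies within a 1.5-fold change. RFC4, a subunit of the loader ring, went from 17.8, 15.8 and 15.6 CPM to 20.8, 22.0 and 22.3 CPM. It rose by 0.40 on the log2 scale (1.32-fold, SE 0.08, edgeR adjusted p = 0.000155), and every inhibitor library was above every DMSO library. RFC4 (ENSG00000163918) lies on chromosome 3 at 186789880 to 186807058.

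The other small loader subunits sit in the same ring as RFC4 but did not pass. RFC2 measured 11.2 ± 0.414 and 11.6 ± 0.599 CPM (0.04, 95% interval -0.14 to 0.23), RFC5 7.13 ± 0.179 and 6.94 ± 0.915 CPM (-0.04, -0.28 to 0.21), and RFC3 4.02 ± 0.349 and 3.44 ± 0.712 CPM (-0.24, -0.58 to 0.11).

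Neither gene of lagging strand maturation passed by edgeR, and the lowest adjusted p over all fits was 0.0733 (LIG1). Both genes lay above a mean of 10 CPM, where 48.6% of all tested genes passed. FEN1, the flap nuclease, was at 11.7, 13.0 and 11.2 CPM in the DMSO libraries and 9.96, 11.4 and 12.4 CPM in the inhibitor libraries (-0.09, adjusted p = 0.527). LIG1, the ligase that seals Okazaki fragments, was at 18.4, 19.4 and 17.4 CPM and 19.6, 21.5 and 20.3 CPM. For LIG1 the groups did not overlap, but the difference of 0.16 missed the threshold (adjusted p = 0.100, unadjusted p by edgeR 0.0441).

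Nucleotide supply held the 1 decrease. RRM2, the ribonucleotide reductase subunit that is made mainly in S phase, went from 4.05, 3.40 and 3.79 CPM to 1.99, 2.10 and 2.80 CPM, with 49 to 121 reads per library. The groups did not overlap, and its log2 fold change was -0.71 (SE 0.18, edgeR adjusted p = 0.00279). RRM2 (ENSG00000171848) lies on chromosome 2 at 10120698 to 10131419. RRM1, the large subunit of the same enzyme, read 15.3, 17.9 and 16.6 CPM in the DMSO libraries and 18.0, 17.9 and 15.8 CPM in the inhibitor libraries and did not pass (0.05, 95% interval -0.11 to 0.22). TYMS, thymidylate synthase, was at 2.21, 2.10 and 1.93 CPM and 1.26, 2.10 and 1.78 CPM, with overlapping groups (-0.27, adjusted p = 0.370).

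Of the 6 genes that control S phase entry or the fork, 0 passed by edgeR, and 0 had an unadjusted p under 0.05. All 6 lay below a mean of 10 CPM, where 23.5% of all tested genes passed. The lowest adjusted p of the 6 over all fits, DESeq2 and limma-voom included, was 0.145 (CCNE2). E2F1, the transcription factor that drives many of the genes above, was at 6.80, 7.39 and 7.55 CPM in the DMSO libraries and 6.55, 8.64 and 7.08 CPM in the inhibitor libraries (0.04, 95% interval -0.21 to 0.29). CCNE1, a cyclin partner of CDK2, was at 6.03, 7.75 and 5.78 CPM and 6.87, 7.59 and 5.21 CPM (0.02, 95% interval -0.27 to 0.31). In both genes the libraries of a group differed more among themselves than the group means did. CCNE2, the other E-type cyclin, measured 1.24 ± 0.217 and 1.66 ± 0.174 CPM, with groups that did not overlap (0.43, adjusted p = 0.178).

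DTL, the ligase adaptor that marks CDT1 for destruction, measured 2.68 ± 0.402 and 2.59 ± 0.595 CPM (-0.05, adjusted p = 0.881). CLSPN, which relays the checkpoint signal at stalled forks, measured 1.74 ± 0.312 and 1.94 ± 0.316 CPM (0.15, adjusted p = 0.636). UHRF1, which brings the maintenance methyltransferase to new DNA, measured 4.94 ± 0.310 and 4.80 ± 0.604 CPM (-0.05, 95% interval -0.34 to 0.24). None of these 3 had a difference of means beyond the SD of its inhibitor libraries.

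For the 26 genes that did not pass, the intervals show how large a change could have been missed. In 18 the 95% interval lay within a 1.5-fold change either way. In the other 8 it did not, namely CDC45, GINS1, GINS2, GINS4, PRIM1, TYMS, CCNE2 and CLSPN, and in GINS2 it reached past 2-fold.

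Some of the genes share exonic bases with a neighbour. RRM2 shares 20.2% of its exonic bases with the same-strand gene AC007240.1. POLD1 shares 8.6% with AC020909.1, also on the same strand. For both neighbours the total stood at 0, which a gene absent from the count table would also be given. TYMS shares 39.1% of its exonic bases with ENOSF1 on the opposite strand, which measured 71.5 ± 0.611 and 69.2 ± 4.34 CPM and did not pass. CCNE2 shares 37.0% with INTS8 on the opposite strand, and INTS8 rose from 36.6 ± 1.31 to 43.3 ± 2.91 CPM (0.24, adjusted p = 0.00211). POLA2 shares 35.1% with the same-strand gene ENSG00000285816, at 1.29 ± 0.126 and 1.21 ± 0.266 CPM, and RFC4 shares 0.7% with the opposite-strand gene EIF4A2, which fell (-0.21, adjusted p = 0.000444). The library kit keeps strand, but how strand was used in counting is not given in the sources, and the part such reads play in these values was not tested.

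Set per kb of exonic sequence, PCNA was the most abundant of the 32 in the DMSO group, at 17.5 ± 1.13 CPM per kb. POLD1 (6.06 ± 0.363), RFC4 (5.47 ± 0.405), RFC2 (5.08 ± 0.187) and FEN1 (4.83 ± 0.378) followed, and the gap between neighbours among these 4 was smaller than the sum of their SDs. This order depends on the length used. Per kb of the longest transcript RFC4, at 11.3, was ahead of POLD1, at 8.49, and RRM1 was ahead of FEN1, with PCNA still first and ORC1 last. ORC1 was lowest, at 0.222 ± 0.0288 CPM per kb, beside GINS2 (0.241 ± 0.0719) and CCNE2 (0.282 ± 0.0493), whose SDs overlap it in the same sense. In the inhibitor group POLD1 stood at 9.59 ± 0.489 CPM per kb, and POLD3 at 5.14 ± 0.218 against 3.60 ± 0.203 in the DMSO group. The median of the 32 stood at percentile 19.7 of the protein-coding genes tested, and 27 of the 32 were below percentile 50.

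**Figure D4:**
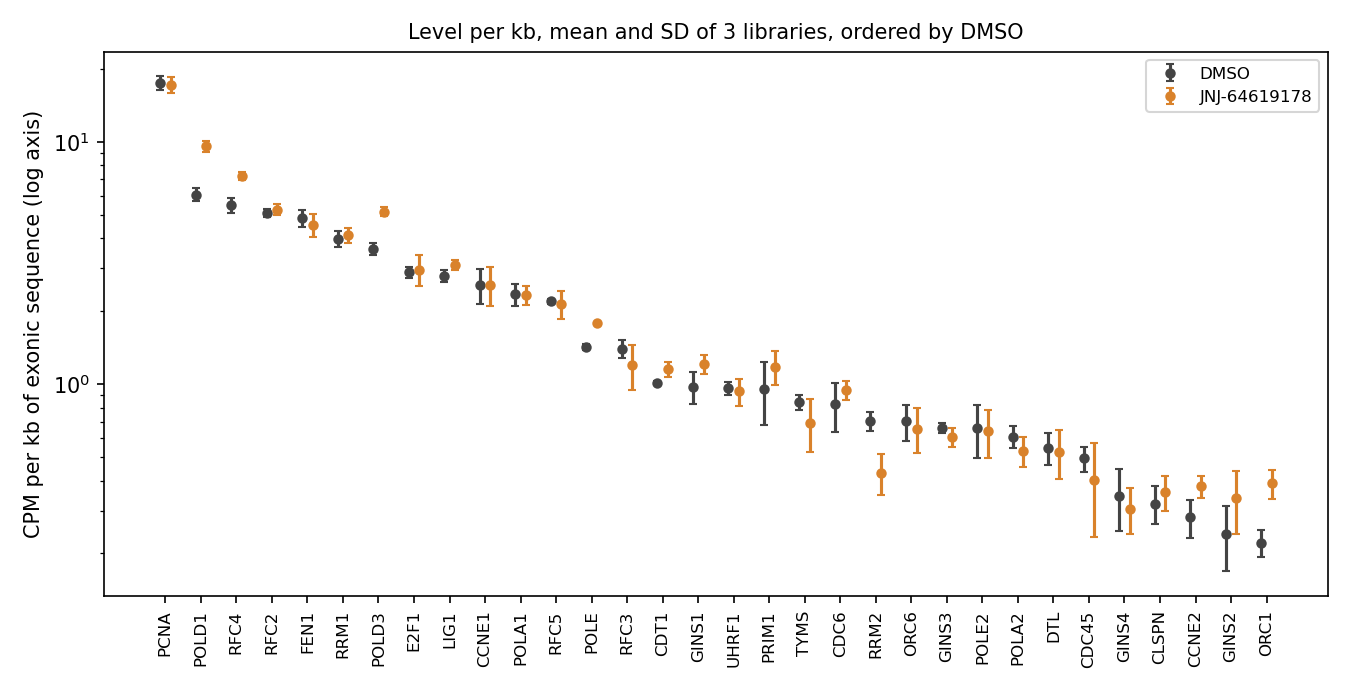
Level of each gene in CPM per kb of exonic sequence (log axis; mean and SD of 3 libraries per group), ordered by the DMSO level. The order runs from PCNA at 17.5 to ORC1 at 0.222, and the inhibitor values of POLD1, RFC4, POLD3, POLE and ORC1 lie above their DMSO values.

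Ratios of partner subunits, taken within each library, do not depend on the scaling between libraries. The RRM1 to RRM2 ratio of levels per kb was 4.82, 6.70 and 5.58 in the DMSO libraries and 11.5, 10.9 and 7.18 in the inhibitor libraries, with no overlap. The RFC4 to RFC2 ratio was 1.17, 1.08 and 0.986 in the DMSO libraries and 1.41, 1.37 and 1.37 in the inhibitor libraries, and did not overlap either. With the longest transcript as the length its mean in the DMSO group was 1.71 in place of 1.08, with the same proportion between groups. The PCNA to POLD1 ratio was lower in every inhibitor library, at 2.50, 3.09 and 3.12 in the DMSO libraries and 1.74, 1.85 and 1.79 in the inhibitor libraries.

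Of the 13 ratios computed, 6 had groups that did not overlap, and each of the 6 includes a gene that passed the test (ORC1, POLD1, RFC4 or RRM2). The ratio of POLD1 to POLD3, both of polymerase delta, was 1.68 ± 0.0751 in the DMSO libraries and 1.87 ± 0.170 in the inhibitor libraries and overlapped. That of POLA1 to POLA2, of polymerase alpha, was 3.74, 3.83 and 4.03 in the DMSO libraries and 4.46, 3.73 and 5.12 in the inhibitor libraries and overlapped too. The pairs were chosen after the values were seen, and the ratios were not tested.

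**Figure D5:**
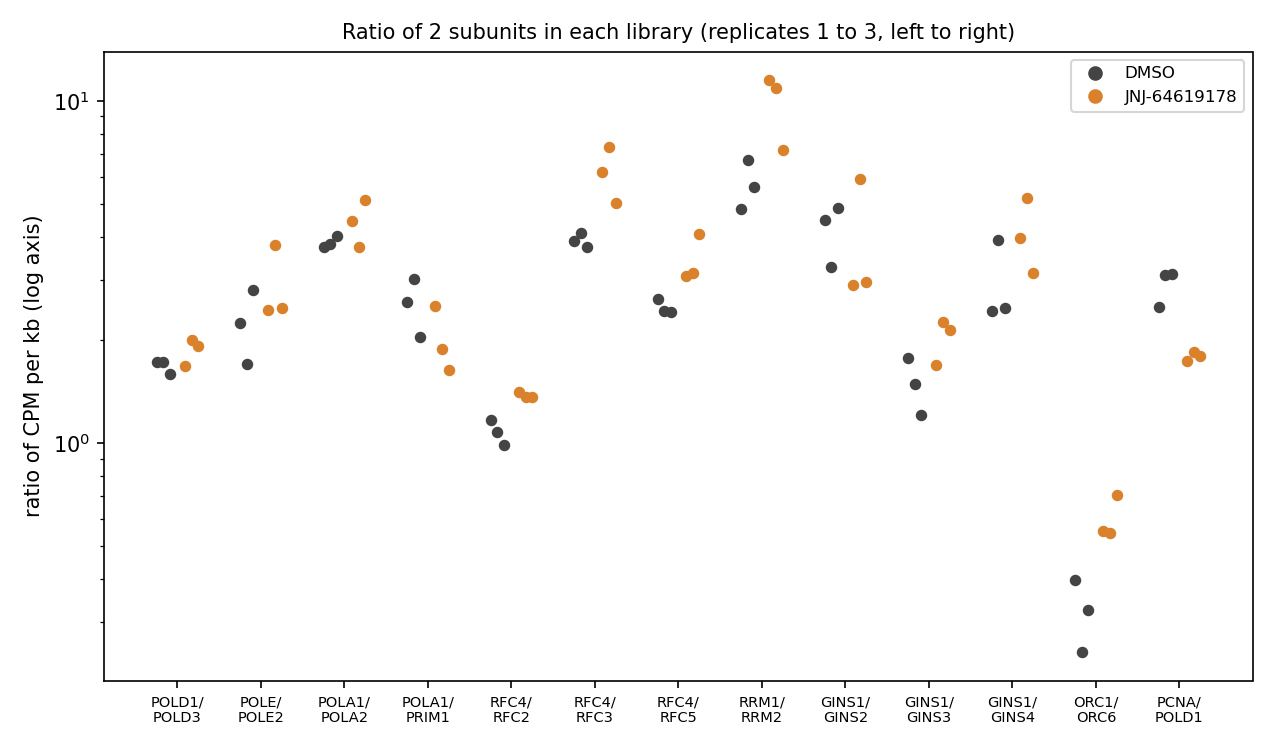
Ratio of the levels per kb of 2 genes in each library (log axis; replicates 1 to 3 from left to right, DMSO and inhibitor side by side) for 13 pairs. Points of the groups do not overlap for RFC4 against RFC2, RFC3 and RFC5, for RRM1 against RRM2, ORC1 against ORC6 and PCNA against POLD1.

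The other genes of these steps moved in both directions. Of 70 listed, 69 were tested, 19 rose and 9 fell (40.6% called), with a median log2 fold change of 0.01. Over all tested genes 37.1% were called, and over the protein-coding ones 40.8%, with a median of 0.019. With upper-quartile scaling 15 of the 69 were higher and 13 lower. RNASEH2A, with 2 to 10 reads per library, was not tested. In licensing 3 of 11 were higher and 3 lower (54.5% called, against 48.6% of all tested genes at 10 CPM or more). Among them were the helicase subunits MCM7 (from 134 ± 2.18 to 227 ± 7.06 CPM, 0.76) and MCM5 (-0.38) and the origin subunit ORC2 (0.44). In helicase activation TOPBP1 (0.58) and MTBP (0.51), which help to recruit CDC45, rose, and the other 8 of 10 did not pass (20% called). Around the clamp the alternative loader subunit CHTF18 (0.52) and the single-strand binding subunit RPA2 (0.51) rose, and the other 6 of 8 did not pass (25% called). In lagging strand maturation the nuclease DNA2 rose (0.54) and the ribonuclease subunit RNASEH2C fell (-0.56), of 4 tested (50% called).

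In nucleotide supply 5 of 15 further genes rose and 3 fell (53.3% called). Over all tested genes 37.1% were called, and 48.6% of those at 10 CPM or more, where most of these 15 lay. DTYMK, which makes thymidine diphosphate, rose (0.44), as did SHMT1 (0.36), a folate enzyme, and the salvage kinase TK1 fell from 6.31 ± 0.442 to 4.68 ± 1.02 CPM (-0.42, adjusted p = 0.0253). Of 16 further genes of S phase control 4 rose and 2 fell (37.5% called). CCNA2, the S phase cyclin, fell from 7.03 ± 0.606 to 4.86 ± 0.584 CPM (-0.53, adjusted p = 0.00219), and the fork protection factor TIMELESS (0.36) and the checkpoint kinase ATR (0.29) rose.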

How the data were processed

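Polyadenylated RNA of 6 HuCCT-1 libraries, 3 per group, was analysed from raw read counts per gene, which the authors deposited as 1 table. The submitters' processing notes list limma, edgeR, featureCounts 1.6.0, STAR 2.7.9a and FastQC 0.11.8 without saying what each did, and a mouse genome build (GRCm39), although the 60649 rows hold human Ensembl identifiers. The sources used here do not give the annotation, the strand setting or the treatment of ambiguous reads. Repeated identifiers, 44 in all and with counts of 0, were dropped, which left 60605 genes.

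Genes were kept with filterByExpr (minimum count 10, minimum total 15), scaled by TMM and tested with edgeR 4.0.16 (glmQLFit and glmQLFTest, group alone), with Benjamini-Hochberg adjustment over all genes and a threshold of 0.05. The SE is the size of the log2 fold change over the square root of F. Positions, exons and lengths came from GENCODE release 29 (GRCh38) and promoters from RefSeq. Alternatives were DESeq2 1.42.0, limma-voom (limma 3.58.1), RLE and upper-quartile scaling, no filter, CPM above 1 in 3 libraries, the replicate number as a block, each library left out in turn, transcript length and a narrower motif. R 4.3.3 and Python 3.11.15 were used, and the fit was tested on simulated data.

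The 32 genes and the 70 further pathway genes were chosen with earlier results of these data known. All 32 are named, and further genes are named where they passed with groups that did not overlap, up to the 3 largest changes per step. The subunit pairs, the split at 10 CPM and the CCAAT and CHR motifs were chosen after values were seen. Replicates of a group differed beyond sampling noise (chi-square over degrees of freedom 2.71 to 9.20) and each counted as 1 sample. Results for some marker genes are not reported here, and their sums leave these genes out.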

Additional observations from a re-analysis of the deposited data

How the results depend on the processing

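POLD1, POLD3, POLE, RFC4 and RRM2 passed in the same direction in all 13 alternative fits, and ORC1 in 8 of them. The 32 genes had 4 or 5 higher and 1 lower in each fit. Same-numbered DMSO and inhibitor replicates did not deviate together (correlations -0.07, -0.01 and -0.0049). Differently numbered ones gave -0.08 to 0.09. Values this near 0 show no shared deviation and cannot settle whether the samples were paired. With the replicate number as a block 5 of the 32 were higher and 1 lower, as were 17 and 9 of the other pathway genes, and 6132 of all genes passed. GINS2 has no value under the filter of CPM above 1 in 3 libraries.

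Signs turned only in genes that passed in no fit. With upper-quartile scaling these were RFC2 (-0.015), RRM1 (-0.0040), E2F1 (-0.017) and CCNE1 (-0.039). With single libraries left out the log2 fold changes of ORC6 (-0.27 to 0.057), GINS4 (-0.37 to 0.038), POLA1 (-0.11 to 0.043), POLE2 (-0.19 to 0.16), PCNA (-0.083 to 0.039) and RFC5 (-0.11 to 0.065) spanned 0. So did those of RRM1 (-0.0059 to 0.11), E2F1 (-0.089 to 0.12), CCNE1 (-0.10 to 0.16), DTL (-0.17 to 0.12), CLSPN (-0.0040 to 0.29) and UHRF1 (-0.14 to 0.044). The cause was not tested.

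With TTTCCCGC and TTTGGCGC alone the share of the 29 genes with an E2F match at any listed start was 37.9%. Taking the longest transcript as the length moved 9 of 13 subunit ratios by more than 1 SD, for instance RFC4 to RFC2 in the DMSO group from 1.08 to 1.71, by the same factor in both groups. Counts were lowest in GINS2, at 17 to 31 reads per library. The part of depth in its wide interval was not tested.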

Other observations

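The 32 genes had a median of 12 exons in their longest annotated transcript, against 8 over the protein-coding genes tested, and POLE (49), POLA1 (37), LIG1 (28) and POLD1 (27) had the most. Across the 32 genes, which share the same 6 libraries, Spearman's rho of the log2 fold change with exon number was 0.27, and across all 13063 protein-coding genes tested it was 0.20. Both are descriptions across genes, which are not independent replicates. POLA1 had 37 exons and a log2 fold change of -0.02, and RFC4 had 11 exons and a log2 fold change of 0.40.

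The CHR letters TTTGAA, a motif of cell cycle promoters, were searched on either strand at all listed starts. They were found for 1 of the 29 genes, RRM1. The share was 16.1% of the genes of the table with an entry and 12.0% of the protein-coding genes tested.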
